A study of Xenopus tropicalis with 12 samples.

Results

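In Xenopus tropicalis animal caps that received human PHF8 mRNA together with the Suv4-20H1 and Suv4-20H2 morpholinos (hRescue), a set of genes that control caps already expressed was raised further. The set holds 200 of the 6817 genes ranked, out of 34177 gene IDs in all. To be ranked, a gene needed at least 10 CPM, read counts scaled to a common total of gene counts per library, in each of the 6 control libraries and a mean control level of at most 300 CPM. The score was the log2 ratio of the lowest hRescue CPM to the highest control CPM, each with 0.5 CPM added, and the members are the 200 genes with the largest score. The members were thus chosen by their hRescue and control levels, so comparisons that set hRescue against controls are a description here, calls included, and support nothing.

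Animal caps are pieces of prospective ectoderm, cut from frog embryos, that form a mucociliary epidermis in culture. Caps at Nieuwkoop-Faber stage 16 were pooled for each library, and RNA was measured in 3 replicates of each of 4 groups. CoMo caps received a control morpholino and no mRNA, and LacZ caps received mRNA of the bacterial beta-galactosidase and no morpholino; these 6 libraries are the controls. hPhf8 caps received human PHF8 mRNA and no morpholino. hRescue caps differ from hPhf8 caps by the Suv4-20H1 and Suv4-20H2 morpholinos, which cannot be told apart from any response to a morpholino plus mRNA, since caps with the Suv4-20H1 and Suv4-20H2 morpholinos alone, or with a control morpholino plus mRNA, were not analysed here.

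SUV4-20H enzymes convert monomethylated lysine 20 of histone H4 into its higher methylation states. PHF8 removes methyl marks on histone H3 and also this monomethyl mark. The paper reported that no drop of the monomethyl mark was seen in bulk chromatin when PHF8 was overexpressed. The comparison of hRescue with the other groups belongs to the question of whether removing this mark restores what loss of SUV4-20H disturbs in ciliated epidermis. The members with the largest scores include genes of the immediate-early class. Such genes are transcribed within minutes of a growth factor, wound or stress signal without new protein synthesis. Their best known products, the Jun and Fos proteins, pair as the transcription factor AP-1.

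The libraries were not alike. Control libraries held 14361942 to 35584520 gene counts and hRescue libraries 5258667 to 7444628. hPhf8 replicate 2 held 2204210 with 12575 genes detected, against 18617 to 21185 in every other library, and stood apart. Of read pairs counted on features, 53.9% to 60.9% in hRescue and 16.6% to 31.6% in the controls fell on those without a gene ID. The part of this difference in the results was not tested. A translation-blocking morpholino need not lower its target's RNA, so suv420h1 is no check of the knockdown. Its level was 89.3, 72.5 and 118 CPM in CoMo, 90.02, 108 and 84.1 CPM in LacZ, 62.0, 56.7 and 75.5 CPM in hPhf8, and 72.0, 57.7 and 71.5 CPM in hRescue. The human PHF8 mRNA is not a gene of the frog annotation.

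Names were available for 194 members, 168 of them as a gene symbol, from the study's own tables of ID and name. These tables were shortened and favour genes with small p-values, so 47.0% of the ranked genes had a name, and counts within gene lists cover named genes only. Shares within a list and over all genes are therefore not like for like. A symbol carried by several gene IDs, as socs3, notch2 and ccdc40 were, is counted for each ID.

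The members leaned to lower control levels than the ranked genes as a whole. The members' mean control level had a median of 32.6 CPM, and that of all ranked genes was 47.0 CPM. The median ratio of the highest to the lowest control library was 1.597 for the members and 1.59 for all ranked genes. In hRescue the members stood 3.42-fold above the control mean in plain CPM at the median, with a range from 2.19-fold to 31.9-fold. The members' median difference from the controls was smaller after edgeR's own scaling, given in the next paragraph. edgeR called all 200 higher in hRescue than in CoMo and than in LacZ, which their choice all but required and from which nothing is read, where 14.7% and 18.4% of all genes tested were called higher. The fold reached 3 for 141 members, 4 for 66 and 8 for 14. Together they took 0.89% to 1.17% of the gene counts in the control libraries, 0.999% to 1.12% in hPhf8 and 3.88% to 5.003% in hRescue.

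The hRescue libraries ranked differently with the scaling. The members' median difference from the control mean was 1.82, 1.78 and 1.63 on the log2 (CPM + 0.5) scale in replicates 1, 2 and 3. Replicate 3 held the highest hRescue value for only 14 members, against 98 for replicate 1 and 88 for replicate 2. Over all ranked genes the same difference was 0.07, 0.02 and 0.01. On TMM-scaled CPM, where edgeR's factors replace the plain total, the members' medians were 1.43, 1.48 and 1.43. These are lower than in plain CPM, on which the folds over the control mean given here rest. Replicate 3 still held the fewest highest values, 45, against 61 for replicate 1 and 94 for replicate 2. Its median stood level with that of replicate 1 and below that of replicate 2.

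**Figure D1:**
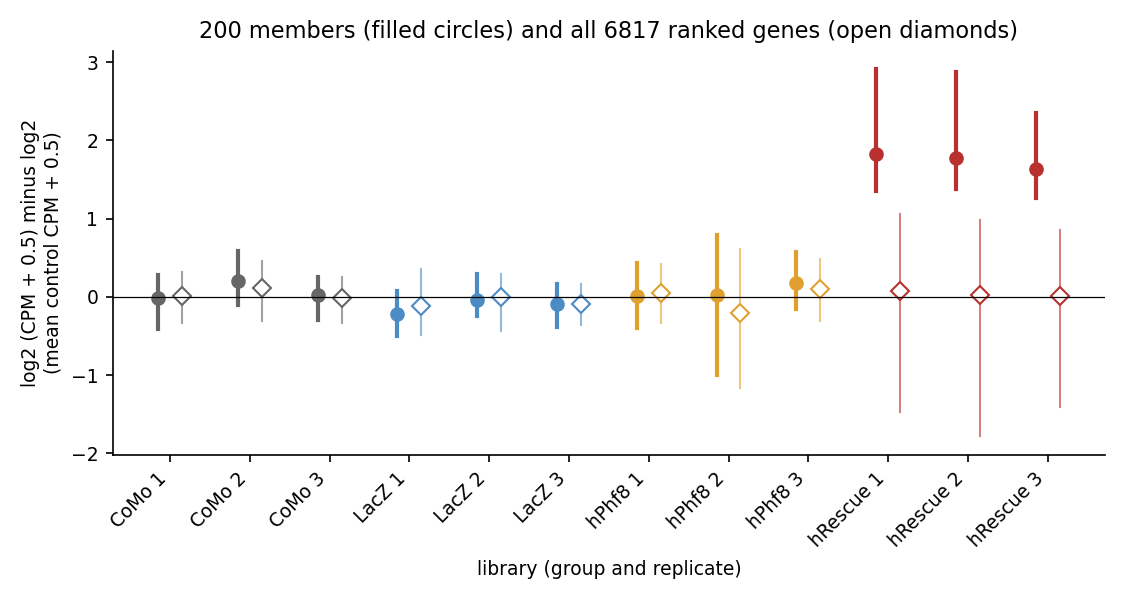
Difference of each library from the control mean on the log2 (CPM + 0.5) scale (y axis) in the 12 libraries (x axis); symbols are medians and lines run from the 10th to the 90th percentile over the 200 members (filled circles) or the 6817 ranked genes, members included (open diamonds). The members' medians were 1.82, 1.78 and 1.63 in hRescue and between -0.22 and 0.21 in the controls, and hPhf8 replicate 2 had the widest line among the libraries outside hRescue.

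The 2 largest scores belonged to the AP-1 genes jun and jund, while junb ranked 8 and fos 15 among the members. jun was at 19.0, 34.1 and 14.0 CPM in CoMo, 25.8, 25.1 and 14.9 CPM in LacZ, 30.4, 32.2 and 15.5 CPM in hPhf8, and 599.5, 680.8 and 396.5 CPM in hRescue. The hPhf8 libraries lay within the control range and the hRescue libraries stood far above it, 25.2-fold over the control mean.

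jund, a second Jun family gene, was at 24.3, 55.3 and 19.4 CPM in CoMo, 25.8, 35.2 and 13.02 CPM in LacZ, 44.3, 46.3 and 30.3 CPM in hPhf8, and 998.8, 1159 and 602.2 CPM in hRescue. Its 31.9-fold difference from the control mean was the largest among the members. junb, the remaining Jun family gene, was at 35.7, 95.1 and 44.96 CPM in CoMo, 56.1, 67.2 and 68.4 CPM in LacZ, 57.2, 51.7 and 63.4 CPM in hPhf8, and 769.3, 947.8 and 601.7 CPM in hRescue. In CPM all 3 Jun genes were lowest in replicate 3 within hRescue.

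fos, the partner of the Jun proteins, varied most between control libraries among these genes. It was at 11.5, 62.5 and 12.1 CPM in CoMo, 16.6, 39.6 and 16.6 CPM in LacZ, 15.7, 35.4 and 10.6 CPM in hPhf8, and 417.3, 526.9 and 277.6 CPM in hRescue. Replicate 2 was the highest in every group. The lowest hRescue library was nevertheless above every other library.

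The next immediate-early members act outside AP-1 itself. plk2, a polo-like kinase induced by serum, was at 34.1, 107 and 37.1 CPM in CoMo, 44.3, 80.5 and 47.8 CPM in LacZ, 61.5, 59.0 and 83.4 CPM in hPhf8, and 1042, 1220 and 758.9 CPM in hRescue. ier2, a nuclear immediate-early protein, was at 20.0, 31.3 and 17.8 CPM in CoMo, 19.9, 23.5 and 20.8 CPM in LacZ, 23.1, 27.7 and 20.4 CPM in hPhf8, and 180.8, 245.0 and 201.8 CPM in hRescue. Both kept their hPhf8 libraries inside the control range.

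cyr61, which encodes a secreted matrix protein that YAP and serum response factor induce, was 6.07-fold above the control mean. rhob, a small GTPase of the cytoskeleton, was 6.52-fold above it. zfp36, which binds AU-rich mRNAs and promotes their decay, was 3.997-fold above it, and csrnp1, a nuclear protein of the same response, 2.71-fold. With jun, jund, junb, fos, plk2 and ier2 these make 10 members on the immediate-early list, whose median fold was 11.0.

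**Figure D2:**
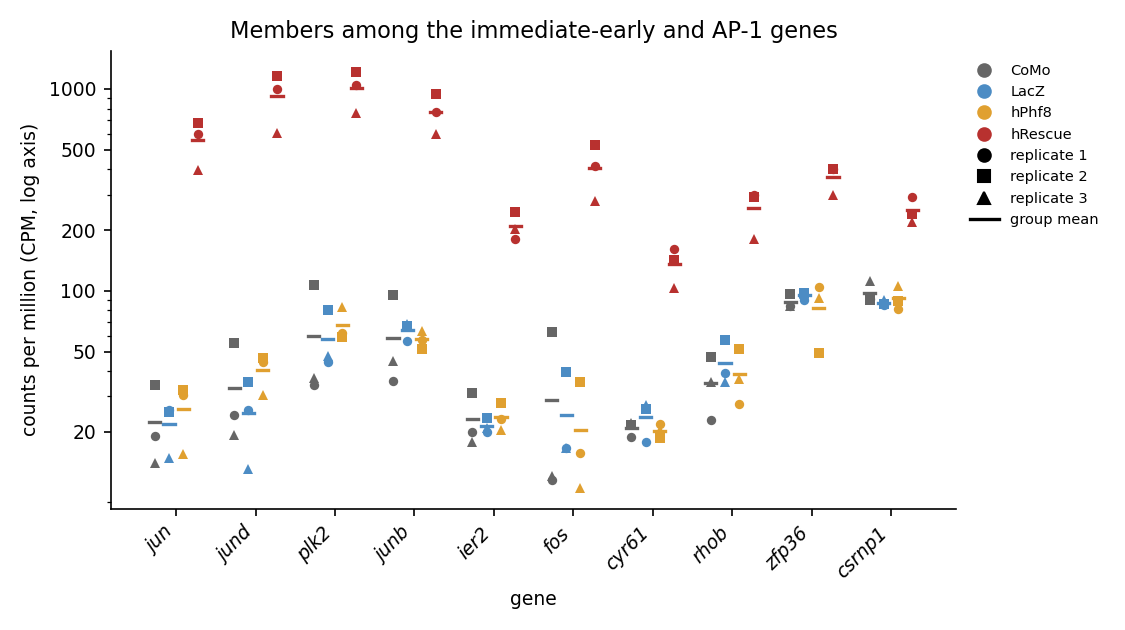
CPM on a log axis (y axis) of the 10 members on the immediate-early and AP-1 list (x axis) in every library; colours are groups, shapes are replicates and short lines are group means. All hRescue points lie above all control and hPhf8 points of the same gene, and jund has the largest fold over the control mean at 31.9.

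The immediate-early list matched 39 gene IDs in the files, socs3 more than once, and each is counted as a gene here. Against CoMo in edgeR's quasi-likelihood test, hRescue had 28 of these higher and 6 lower at an adjusted p under 0.05, where 14.7% of all genes tested were called higher and 33.4% in either direction. The median log2 fold change was 1.82 over the list and -0.02 over all genes tested. The list holds named genes only and names favour small p-values, so its shares and those of all genes are not like for like. The contrast of hRescue with CoMo is the one the members were drawn from, so the 10 members in the count are no evidence of direction. The list itself was chosen with earlier results of these data known, so the counts of its other genes are a description too. Of the other genes, 13 had a control library below 10 CPM and could not be ranked, and 12 of these were called higher. Of the 12 ranked genes that were not members, 6 were called higher and 4 lower, and of the 4 genes above the limit of 300 CPM, 0 were higher and 2 lower.

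The genes too low to be ranked include some that controls hardly expressed. Of these 13 genes, egr1, fosb and ier3 had the largest log2 fold changes against CoMo and were chosen after their values were seen. ctgf, at 0.04 ± 0.46 (SE), was not called. egr1, a zinc finger factor induced through ERK, was at 1.48 to 6.41 CPM in the controls and at 185, 159 and 110 CPM in hRescue. Its log2 fold change against CoMo was 5.27 ± 0.43 (SE). fosb, another Fos gene, was at 1.04 to 3.12 CPM in the controls and at 172, 120 and 70.9 CPM in hRescue, with a log2 fold change of 5.35 ± 0.34 (SE). ier3, a stress-induced survival factor, reached 216, 201 and 112 CPM in hRescue from at most 5.199 CPM in the controls.

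The list did not rise as a whole. klf6, a Krüppel-like factor, was lower in hRescue by 1.22 ± 0.23 (SE) on the log2 scale, nfil3, a basic leucine zipper repressor, by 3.33 ± 0.38 (SE), and zfp36l1, a paralogue of zfp36, by 2.14 ± 0.26 (SE). dusp1, a phosphatase that switches off MAP kinases, was not called, with a log2 fold change of 0.11 ± 0.20 (SE).

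**Figure D3:**
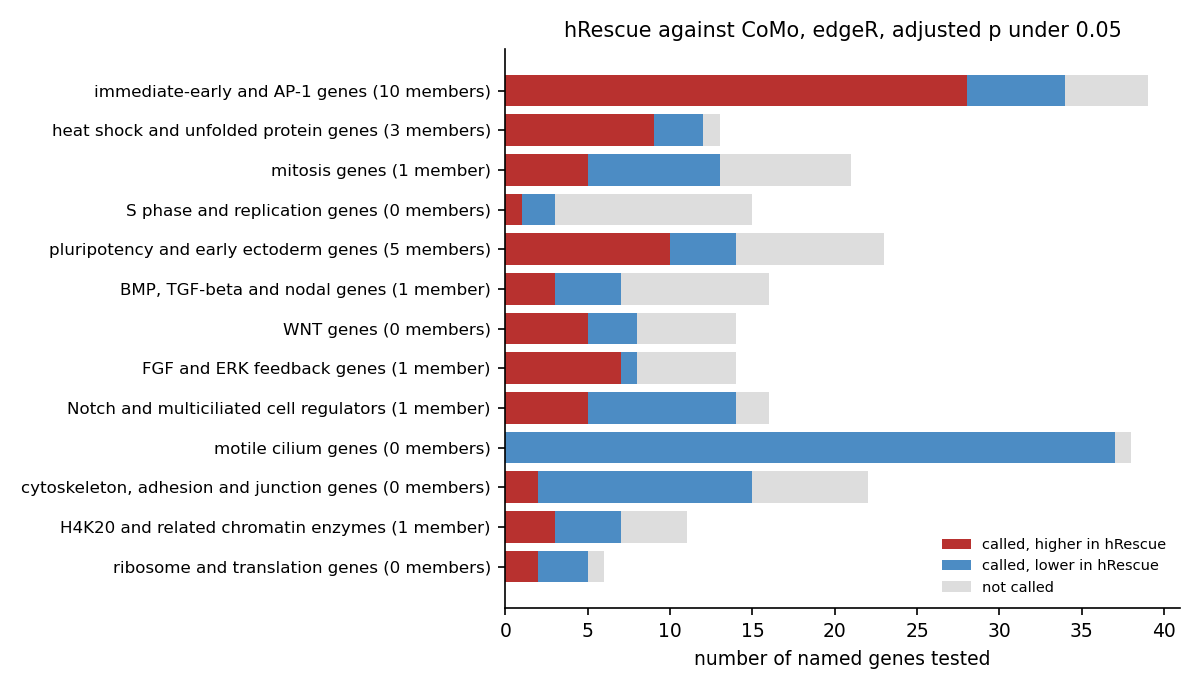
Number of named genes tested (x axis) in each gene list (y axis) that edgeR called higher, called lower or did not call for hRescue against CoMo at an adjusted p under 0.05, with the number of members in brackets. The immediate-early list had 28 of 39 higher, and the motile cilium list had 37 of 38 lower and held no member.

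Genes of the DNA damage response were the next group. mdm2, a ubiquitin ligase whose own gene is induced by DNA damage, was at 86.2, 83.8 and 96.3 CPM in CoMo, 80.9, 95.4 and 92.7 CPM in LacZ, 78.6, 88.0 and 82.4 CPM in hPhf8, and 352.6, 539.4 and 451.6 CPM in hRescue. The 9 libraries outside hRescue were nearly level. gadd45g, a growth arrest and DNA damage inducible gene, was 7.22-fold above the control mean, and aen, a nuclease active in apoptosis, was 5.21-fold above it.

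3 members belong to the heat shock and unfolded protein list. atf4, the transcription factor of the integrated stress response, was at 178.5, 149.2 and 184.2 CPM in CoMo, 160.6, 168.8 and 185.4 CPM in LacZ, 171.6, 230.9 and 155.0 CPM in hPhf8, and 621.4, 717.1 and 660.6 CPM in hRescue. hspa5, the chaperone of the endoplasmic reticulum, was 4.31-fold above the control mean, and hspd1, the mitochondrial chaperonin, 3.59-fold. Against CoMo the list had 9 genes higher, the 3 members included, and 3 lower of 13 named. Over all genes tested 14.7% were higher and 33.4% were called in either direction. The 3 lower genes of the list were hsp70, hsf2 and ddit4, with log2 fold changes of -1.62, -1.46 and -0.83. ddit3, a target of atf4 that encodes CHOP and was too low in controls to be ranked, had a log2 fold change of 3.82 ± 0.32 (SE).

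5 members belong to the pluripotency and early ectoderm list. The ventx genes encode homeodomain repressors downstream of BMP that keep early Xenopus cells uncommitted. ventx1.1 was at 23.2, 35.2 and 22.4 CPM in CoMo, 16.6, 28.6 and 15.9 CPM in LacZ, 39.97, 59.4 and 26.9 CPM in hPhf8, and 186.0, 153.3 and 132.9 CPM in hRescue. ventx2.1 was 3.301-fold and ventx2.2 was 3.97-fold above the control mean. In RefSeq gene order ventx2.2, ventx1.1 and ventx2.1 follow one another directly. As near relatives they may share sequence, and read pairs that mapped to several places were left out of the counts.

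pou5f3.1, a frog counterpart of the mammalian Oct4 gene, was at 175.7, 139.2 and 230.6 CPM in CoMo, 122.0, 129.0 and 174.9 CPM in LacZ, 109.3, 132.0 and 171.2 CPM in hPhf8, and 581.6, 498.4 and 532.8 CPM in hRescue. klf17, a Krüppel-like factor of the early embryo, was 6.11-fold above the control mean. Of all genes tested, 14.7% were higher and 33.4% were called in hRescue against CoMo. Of the 23 named genes on this list, 10 were higher, the 5 members among them, and 4 lower, and the list median was -0.09. Against LacZ 10 were higher and 9 lower, with a list median of -0.24. There 18.4% of all genes tested were higher and 39.1% were called in either direction. tp63, the master regulator of basal epidermal cells, was among the lower ones at 89.2, 60.6 and 141 CPM in hRescue, with 931 to 1469 CPM in the controls.

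**Figure D4:**
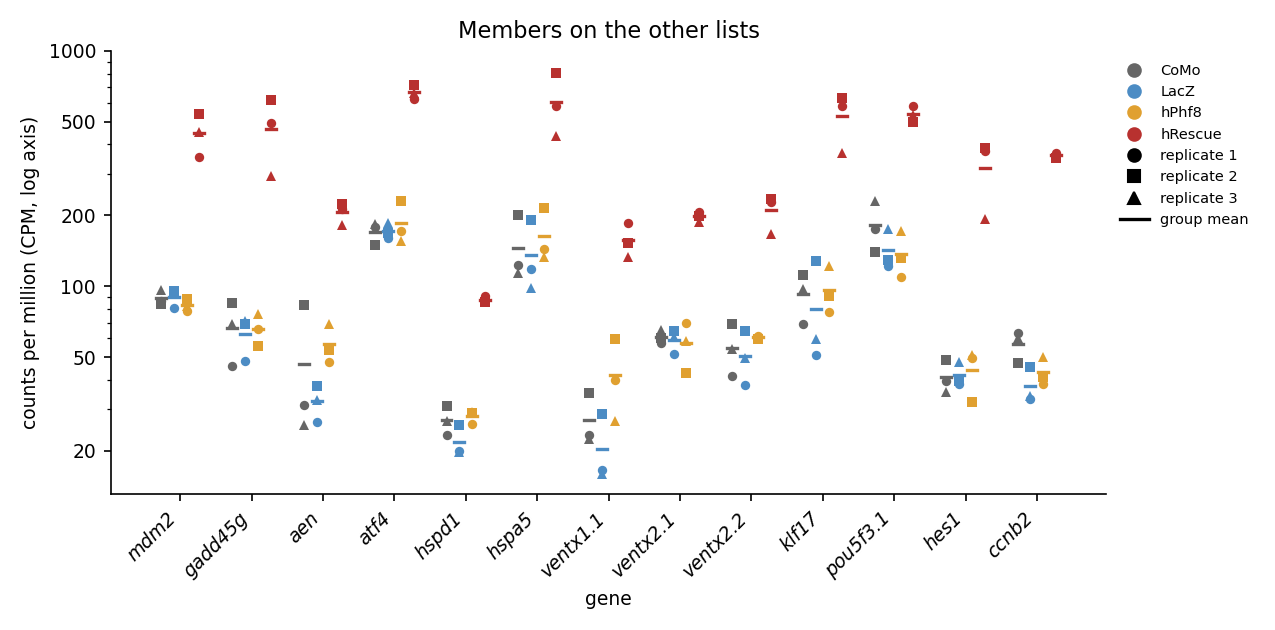
CPM on a log axis (y axis) of 13 members on other lists (x axis) in every library; colours are groups, shapes are replicates and short lines are group means. Every hRescue point lies above every control point of the same gene, and mdm2 was nearly level across the other groups.

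4 further lists held 1 member each beyond fos. hes1, a repressor activated by Notch, was at 39.7, 48.4 and 35.7 CPM in CoMo, 38.3, 39.5 and 47.6 CPM in LacZ, 49.6, 32.2 and 50.9 CPM in hPhf8, and 373.4, 387.8 and 193.2 CPM in hRescue. Against CoMo its list of Notch and multiciliated cell regulators had 5 genes higher, hes1 included, and 9 lower of 16. ccnb2, a cyclin of mitotic entry, was at 63.1, 47.2 and 60.5 CPM in CoMo, 33.3, 45.6 and 34.0 CPM in LacZ, 38.4, 41.3 and 49.98 CPM in hPhf8, and 369.0, 350.2 and 361.9 CPM in hRescue. Against CoMo the mitosis list had 5 genes higher, ccnb2 included, and 8 lower of 21. Most of the list thus did not move with ccnb2. Over all genes tested 14.7% were higher and 33.4% were called in either direction. ski, a repressor of TGF-beta signalling, was 2.96-fold and dnmt1, the maintenance DNA methyltransferase, 2.77-fold above the control mean. The lists of S phase, WNT, cytoskeleton and ribosome genes held no member.

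The rest of the 20 named genes with the largest scores lie on no list. txnip, which binds thioredoxin and restrains glucose uptake, was at 28.5, 47.9 and 31.3 CPM in CoMo, 27.5, 32.2 and 37.8 CPM in LacZ, 44.3, 24.95 and 39.6 CPM in hPhf8, and 649.7, 652.9 and 406.9 CPM in hRescue. It was 16.7-fold above the control mean. fam46a, a poly(A) polymerase family gene, was 12.2-fold, hps6, of lysosome-related organelle formation, 8.04-fold, ctf1, a cytokine of the interleukin 6 family, 6.69-fold, and the zinc finger gene znf674 6.67-fold above the control mean. gtsf1, a factor of the piRNA pathway, was 5.95-fold, smox, spermine oxidase, 5.71-fold, akap8l, a nuclear scaffold protein, 5.53-fold, and tmcc1, an endoplasmic reticulum protein, 4.78-fold above it.

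Some high members lack an established name. LOC100498107 was at 38.9, 277.6 and 74.0 CPM in CoMo, 112.5, 257.3 and 118.3 CPM in LacZ, 99.1, 196.9 and 119.5 CPM in hPhf8, and 1752, 4206 and 1976 CPM in hRescue. LOC100489887, which RefSeq names satpa, was at 40.4, 285.3 and 73.3 CPM in CoMo, 82.2, 194.8 and 75.7 CPM in LacZ, 64.3, 212.8 and 80.7 CPM in hPhf8, and 2189, 3283 and 2358 CPM in hRescue. Both had replicate 2 highest in all 4 groups, as fos did. Over all members replicate 2 was the highest in both CoMo and LacZ for 72 of 200 (36.0%), near the 34.8% of all ranked genes.

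The smallest scores show where the set ends. The last members inside were ppp1r14c, LOC734020 and mink1 with scores of 0.94, 0.93 and 0.93, and the first outside were tmf1, fam103a1 and ado, each at 0.93. tmf1 was at 115.1, 136.7 and 115.8 CPM in hRescue and 45.9 to 60.0 CPM in the controls.

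The levels in hPhf8 are set beside those in hRescue first, as a description. All 200 were higher in each hRescue library than in hPhf8 replicates 1 and 3, where 30.5% of the ranked genes were, and 196 were higher than in all 3 hPhf8 libraries, where 26.2% were. edgeR called 187 higher in hRescue than in hPhf8, where 9.16% of all genes tested were higher and 20.4% were called in either direction. Since these counts use the hRescue libraries that chose the members, nothing is read from them. Over hPhf8 replicates 1 and 3 the members stood 3.17-fold higher in hRescue at the median.

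The 13 members that were not called include several with a high value in hPhf8 replicate 2, and all 200 were called without that library. LOC101730971, chosen after its values were seen, was at 17.5, 439 and 25.5 CPM in hPhf8 and at 62.9, 45.5 and 49.6 CPM in hRescue. ppfibp1, a liprin also chosen after its values were seen, was at 22.0, 91.6 and 25.04 CPM in hPhf8 and at 64.6, 62.2 and 57.6 CPM in hRescue.

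Against the controls, hPhf8 gives comparisons that the rule did not use on the hPhf8 side, although the control libraries are shared. The score favours genes whose highest control CPM is low, which by itself can tilt members towards higher levels in hPhf8 than in controls. The size of this tilt was not tested. edgeR called 0 of 200 members for hPhf8 against LacZ and 0 for hPhf8 against CoMo, with 0% of all genes called in each. At an unadjusted p under 0.05 there were 10 members (5.0%) against LacZ, where 6.09% of all genes were below that value, and 3 members (1.5%) against CoMo, where 3.25% were. DESeq2 called 1 member against LacZ, mtfr1, where it called 0.285% of all genes tested, and 0 members and 0% of all genes against CoMo. The members' median log2 fold change was 0.03 against LacZ and 0.01 against CoMo, with medians of -0.03 and -0.02 over all genes tested.

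In CPM, 19 members (9.5%) lay above every control library in both hPhf8 replicates 1 and 3, and 0 lay below all of them. Among the ranked genes these shares were 7.19% and 1.98%. Against LacZ alone 65 members (32.5%) were higher in both libraries without overlap and 4 lower, beside 23.9% and 4.97% of the ranked genes. Against CoMo alone 23 were higher and 14 lower, beside 10.8% and 7.88%. The comparisons share the hPhf8 libraries. In the fit on all 3 hPhf8 libraries, leaving out TMM scaling moved the median of all genes between hPhf8 and LacZ by 0.15 on the log2 scale. The members' median CPM difference from LacZ was 0.20 over hPhf8 replicates 1 and 3 only, so the values are not like for like. The part of scaling in this difference was not tested. Over these replicates the ranked genes had a median difference of 0.14.

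mtfr1, a regulator of mitochondrial fission, had one of the 5 largest differences of hPhf8 replicates 1 and 3 from LacZ. It was at 15.5, 28.8 and 17.1 CPM in CoMo, 14.1, 16.9 and 13.2 CPM in LacZ, 29.6, 29.9 and 32.1 CPM in hPhf8, and 66.4, 79.7 and 69.0 CPM in hRescue. The log2 fold change of hPhf8 against LacZ was 0.91 ± 0.23 (SE) with an adjusted p of 0.781 in edgeR, so it did not pass the test. Its hPhf8 libraries lay above all LacZ libraries, and CoMo replicate 2 came close to them.

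The other members with the largest such difference were stoml2, abhd4, akap2 and slc10a3. stoml2, a mitochondrial membrane protein, differed by 1.099, abhd4, a phospholipid hydrolase, by 1.04, akap2, a kinase anchor protein, by 0.91 and slc10a3, of the bile acid carrier family, by 0.86 on the log2 (CPM + 0.5) scale. In hPhf8 replicate 2 stoml2 was at 9.07 CPM, below every LacZ library, and akap2 was at 24.5 CPM, also below them. The edgeR values over all 3 libraries were 0.68 ± 0.37 (SE) for stoml2 and 0.44 ± 0.31 (SE) for akap2, and neither passed in this fit. stoml2, abhd4, akap2 and slc10a3 each passed the threshold only under an alternative.

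The 5 members with the lowest difference were fos, cnfn.1, LOC100489887, LOC100498107 and rhob. cnfn.1, a cornifelin gene of outer epidermis, was at 201, 135 and 161 CPM in CoMo, 212, 182 and 180.2 CPM in LacZ, 139, 162 and 90.4 CPM in hPhf8, and 455, 634 and 547 CPM in hRescue. Its log2 fold change against LacZ was -0.69 ± 0.27 (SE) with an adjusted p of 0.781, so this fit did not tell hPhf8 and LacZ apart. Over all settings run it lay between -1.046 and -0.442, and it passed the threshold only under an alternative. fos had a log2 fold change of -0.37 ± 0.53 (SE). fos and rhob also passed the threshold only under an alternative.

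**Figure D5:**
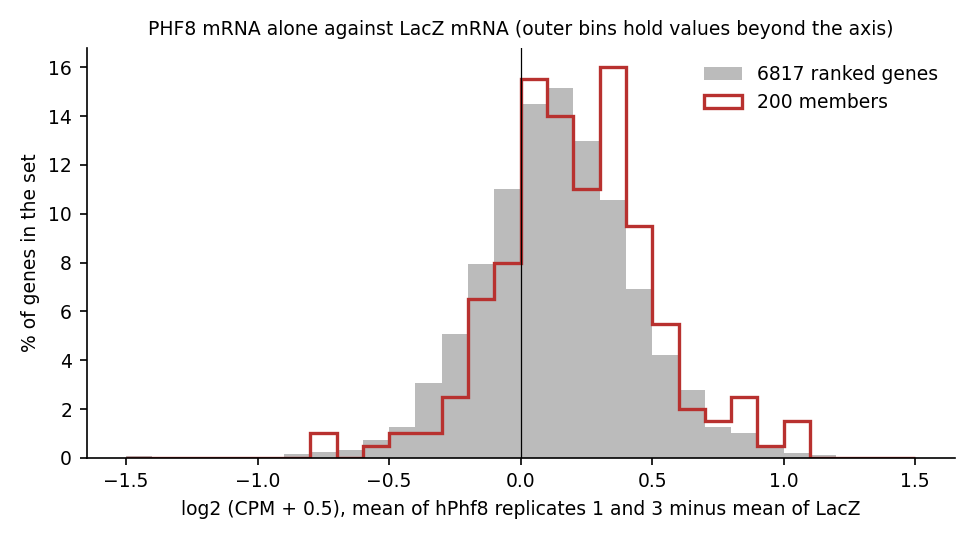
Difference between the mean of hPhf8 replicates 1 and 3 and the mean of LacZ on the log2 (CPM + 0.5) scale (x axis) for the 200 members (red outline) and the 6817 ranked genes, members included (grey), as the percentage of genes in each set (y axis). The medians were 0.20 for the members and 0.14 for the ranked genes.

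The last comparison sets the 2 kinds of control against each other. The rule used the levels of both, through the lowest, mean and highest control CPM but not through their difference, so the counts are a description. edgeR called 0 of 200 for LacZ against CoMo, with 0% of all genes called. DESeq2 also called 0 members and 0% of all genes, and 11 members (5.5%) had an unadjusted edgeR p under 0.05, beside 3.42% of all genes. In CPM, 45 members (22.5%) were lower in every LacZ library than in every CoMo library and 1 was higher, beside 11.9% and 2.13% of the ranked genes. The members' median log2 fold change was -0.06 with TMM scaling, and without it the median of all genes moved by -0.12.

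Markers of cell types moved with hRescue as well. The 38 named motile cilium genes summed to 4154 to 9326 CPM in the control libraries and to 1799 to 2682 CPM in hRescue. The 9 ionocyte markers summed to 790.5 to 2091 CPM in the controls and 374.4 to 574.9 CPM in hRescue. The 7 neural crest markers summed to 630.8 to 1039 CPM and 274.0 to 398.1 CPM, but sox9, twist1 and zic1 were called higher against CoMo and ets1, snai1 and snai2 lower. ets1, the most abundant of them, was at 369.6 to 828.1 CPM in the controls and 55.7 to 138 CPM in hRescue. The 4 named endoderm markers summed to 0.60 to 6.90 CPM in the controls and 37.5 to 102.9 CPM in hRescue, and 3 of these, mixer, sox17a and sox17b.2, were called higher against CoMo. The 5 goblet cell markers summed to 4756 to 6755 CPM and 5229 to 6055 CPM, and these sums were nearly all otog. Against CoMo itln1 and itln2 were called lower and fell by 1.51 ± 0.23 (SE) and by 1.98 ± 0.32 (SE) on the log2 scale, and spdef higher, with a log2 fold change of 1.58 ± 0.35 (SE). The 52 listed motile cilium genes matched 38 gene IDs, ccdc40 more than once. Names were found for 9 of 11 ionocyte markers. For neural crest they were found for 7 of 12, for endoderm 4 of 11 and for goblet cells 5 of 12. No named marker was at 0 in all libraries, from which nothing is read, since names favour genes with small p-values. None of these markers was a member. Their part in the members' levels was not tested, and in pooled explants a change in cell numbers cannot be told apart from a change in RNA per cell.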

How the data were processed

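Animal caps of X. tropicalis were profiled in 12 libraries, 3 replicates of 4 groups taken from the sample titles. For each library the authors deposited raw gene-level read counts, made per the labels with rRNA depletion, directional paired-end 50 bp sequencing and STAR 2.7.1a on Xenbase v9.1 models prepared with Cufflinks. The reverse-strand counts were used as sense. STAR's 4 totals and the entry collecting features without a gene ID were left out. That entry held 16.6% to 60.9% of the read pairs counted on features. CPM were computed over the remaining genes.

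The members and gene lists were chosen with earlier results of these data known. IDs were named from the study's supplementary tables, which pair 6622 IDs with names; 186 members matched a RefSeq gene (assembly UCB_Xtro_10.0), used for names and gene order only. Genes named in the text are the 20 members with a symbol and the largest score, members on a list, the 5 highest and 5 lowest in hPhf8 replicates 1 and 3 minus LacZ, and 3 genes on each side of the limit; others are said to be chosen after their values were seen, or serve a list or check.

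Each comparison was fitted on its own 6 libraries with edgeR 4.0.16 in R 4.3.3, keeping genes with a count in 5 of 6 libraries. The settings were the quasi-likelihood test, TMM, no covariate, two-sided p and Benjamini-Hochberg adjustment over all genes tested. The fit was tested on simulated data for hRescue against CoMo only, and the other comparisons were not simulated. Calls were made at an adjusted p under 0.05. Same-numbered replicates deviated together across genes for LacZ and CoMo (r from 0.40 to 0.74), hRescue and CoMo (0.22 to 0.42) and hRescue and LacZ (0.28 to 0.53), so the numbers pair these groups. Alternatives were the replicate block, DESeq2 1.42.0, its size factors, library size, other filters, counts without regard to strand and each library left out. The members had 144 to 3940 counts in their lowest control library, 158 to 12402 in their lowest hRescue library and 0 to 967 in hPhf8 replicate 2, where precision was lowest. Replicates are biological per the labels. Promoter and transcript sequences were not used here, and some genes of the DNA damage list, with the counts over that list, are not reported here.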

Additional observations from a re-analysis of the deposited data

Results flagged for a closer look

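Counts on the opposite strand of the members lay outside the comparisons above and were higher than in the controls in 4 libraries. They amounted to 47.4 to 64.7 CPM in the 6 control libraries, to 551.5, 408.5 and 242.1 in hRescue replicates 1, 2 and 3, and to 143.8 in hPhf8 replicate 2. For hRescue against CoMo and against LacZ the exact permutation test gave p = 0.1, the smallest that 3 against 3 libraries allow, and an adjusted p of 0.4 over 10 tests. As a share of the members' counts on both strands, which takes out the members' own rise, the antisense counts were 1.21%, 0.81% and 0.62% in hRescue and 0.43% to 0.71% in the controls, so these ranges overlapped (exact p = 0.2 against each control). In hPhf8 replicates 1, 2 and 3 the members' share was 0.64%, 1.28% and 0.48%, so replicate 2 stood above every hRescue library. The share over all ranked genes was 1.58% to 2.39% in hRescue and 0.93% to 0.98% in the controls. In hPhf8 replicates 1, 2 and 3 it was 0.951%, 1.51% and 0.947%. mdm2 had the most antisense counts, 386, 285 and 177 in hRescue, followed by LOC101731689 with 492 and epg5, an autophagy gene, with 486 in the 3 hRescue libraries together. In epg5 the controls held 1 to 10 antisense counts each.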

How the results depend on the processing

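The count of members called for hRescue against CoMo and against LacZ was 200 under every alternative run, and that for hRescue against hPhf8 lay between 184 and 200 except without hRescue replicate 1 (165), hRescue replicate 2 (166), hRescue replicate 3 (175) and hPhf8 replicate 3 (176). Leaving out 1 replicate at a time gave 165 to 200 for hRescue against hPhf8. Same-numbered libraries correlated at -0.01 to 0.35 between hPhf8 and the other groups. The highest values were those of replicate 1, 0.31 with CoMo and 0.35 with LacZ, so whether hPhf8 is paired with them was left undecided. The replicate block gave 195 members for hRescue against hPhf8 and changed no call count in any comparison by over 1.5 times. The exception is the replicate block with hPhf8 replicate 2 left out, which gave 53 members and 18.3% of all genes for hPhf8 against CoMo and 22 members and 14.5% for hPhf8 against LacZ. The same kind of fit on replicates 1 and 3 alone, chosen after seeing the data, gave 64 members and 19.3% of all genes for LacZ against CoMo, so with 4 libraries these fits also called members between the controls. DESeq2 called 1 member for hPhf8 against LacZ, and every other alternative left 0 members called for hPhf8 against either control and for LacZ against CoMo. Without TMM, hRescue against CoMo had 3288 genes higher and 2308 lower in place of 2513 and 3205, and hRescue against LacZ 4682 and 2406 in place of 3141 and 3518. The median of all genes then moved by 0.23 and 0.33 on the log2 scale. Of the 200 members, 168 stayed on TMM-scaled CPM, 197 with a pseudocount of 2 CPM, 189 without regard to strand, and 160 to 196 with 1 library left out, the fewest without hRescue replicate 3. On TMM-scaled CPM, added after seeing the data, the members' medians in hRescue replicates 1 to 3 moved from 1.82, 1.78 and 1.63 to 1.43, 1.48 and 1.43. For hPhf8 against LacZ the log2 fold change turned positive under some alternatives for 3 members: LOC100489887 reached 0.003 by library size and ranged from -0.877 to 0.424 with 1 library left out, LOC100498107 from -0.755 to 0.086 and fos from -1.053 to 0.105, with hPhf8 replicate 2 left out at the low end and LacZ replicate 2 at the high end. The antisense share difference ranged from 0.17 to 0.46 percentage points against CoMo and 0.16 to 0.45 against LacZ with 1 library left out. The other 769 values of named genes kept direction and side of the threshold, and 9, all for hPhf8 against LacZ, passed it only under an alternative. The low depth and poor mapping of hPhf8 replicate 2 limit every hPhf8 comparison.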

Other observations

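Some further members are named here. They were picked after their values were seen, no share of such roles among the ranked genes was taken, and nothing is claimed of any group; every fold is over the control mean. hexim1 and mepce, protein parts of the 7SK ribonucleoprotein that holds back transcription elongation, were both members. hexim1 was at 65.1, 123.9 and 49.0 CPM in CoMo, 81.8, 63.3 and 81.5 CPM in LacZ, 148.4, 77.6 and 119.1 CPM in hPhf8, and 770.5, 716.7 and 394.6 CPM in hRescue, 8.10-fold. mepce was 4.25-fold. In polyamine breakdown the spermine oxidase smox at 5.71-fold and the acetyltransferase sat1 at 3.91-fold were members.

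Single members with other roles are given as values. ube2s, a ubiquitin-conjugating enzyme of the anaphase-promoting complex, was 5.203-fold, dusp11, an RNA phosphatase, 4.73-fold, brca1, of DNA repair, 4.02-fold, and nup98, a nucleoporin, 3.90-fold. Among the clock repressors, cry1 was 2.64-fold and nr1d1 3.67-fold. cxcr4, the chemokine receptor, was 4.42-fold and sox4, a transcription factor of progenitor cells, 4.87-fold.

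2 further sets of members adjoin in RefSeq gene order. gtsf1 lies beside LOC100145274, with folds of 5.95 and 3.56, and grn, the progranulin gene, beside fam171a2, with folds of 3.55 and 3.21.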
